A study of Mus musculus with 9 samples.

Results

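The noncoding transcriptome of normal chow-fed liver was described from the 3 pools titled Control, of 9 pools in all. The pools were chosen by that title alone, and no measured value entered the choice. All mice were male C57BL/6J, an inbred wild-type strain, aged 20 weeks, and each pool held liver RNA of 4 mice. Control mice ate normal chow for 17 weeks, and the labels record no gavage for them. The other 6 pools served only for comparison. The 3 pools of the high fat diet group came from mice fed for 17 weeks on chow in which fat supplied 45% of the energy, and these mice were given saline into the stomach during the last 5 weeks. The 3 pools of the metformin group came from mice on the same diet given metformin, a drug that lowers blood glucose, at 3 mg/kg per day over those 5 weeks. Diet and gavage therefore changed together between the controls and the rest, and a pooled value averages over its mice. In such whole tissue, fewer cells of a type and less RNA per cell cannot be told apart.

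Long noncoding RNAs are transcripts that are not translated into protein. Some act where they are made, on neighbouring or imprinted genes, others build nuclear bodies or carry small RNAs within their sequence, and for most no function is known. Liver is dominated by hepatocytes, whose mRNA is taken up to a large extent by a limited set of secreted and metabolic products, and noncoding transcripts are in general made at lower levels and in fewer tissues than mRNAs.

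The arrays carried 97836 probes, each a short oligonucleotide for 1 transcript, in classes set by the start of the probe's identifier. Agilent's own catalogue, meant mainly for mRNAs, had 39027 probes, and the noncoding classes had 58809. These were 28773 from NONCODE (a database of noncoding RNAs), 15675 from RIKEN full-length cDNA clones, 12146 predicted RefSeq transcripts (XR), 942 Ensembl transcripts, 871 curated RefSeq transcripts (NR), 373 ultraconserved elements and 29 that carry the name of a long noncoding RNA. A level is the log2 signal relative to the array's upper quartile, so that 0 is the upper quartile and a step of 1 is a 2-fold difference. A probe was above background where the scanner software's own test marked its spots as well above background, with a minimum share of 0.5 of them. The lowest level so marked lay between -4.63 and -3.95 in the controls, and the median negative control spot between -5.74 and -5.03. Levels of different probes are not comparable as amounts of RNA, so that a rank by signal describes the array and not transcript numbers.

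Just over 50% of the noncoding probes gave a signal above background in chow liver. The share of noncoding probes was 51.5% in control replicate 1, 51.3% in replicate 2 and 58.1% in replicate 3, a mean of 53.7% ± 3.87 (SD, n = 3). The catalogue gave 70.9%, 71.6% and 75.6% in the same pools. Replicate 3 stood above the other controls in both, and the catalogue exceeded the noncoding classes in every pool, by 19.01 ± 1.39 percentage points (SD, n = 3). None of the negative control spots was marked as above background on any array.

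The noncoding classes kept nearly the same order in each control pool. RIKEN clones were detected most often, at 55.0%, 55.4% and 62.5%, followed by NONCODE probes at 53.9%, 53.4% and 60.3%. Curated RefSeq transcripts reached 46.7%, 48.7% and 55.5%, and predicted RefSeq transcripts 43.0%, 42.4% and 48.9%. The curated class thus exceeded the predicted one by 5.50 ± 1.55 points (SD, n = 3), with the difference above 0 in all 3 pools. Ensembl transcripts gave 45.9%, 44.4% and 49.6%, within 1 point of the curated class in replicate 1 and below it in every pool. Ultraconserved elements were detected least often among the classes of more than 29 probes, at 33.5%, 33.8% and 40.8%.

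**Figure D1:**
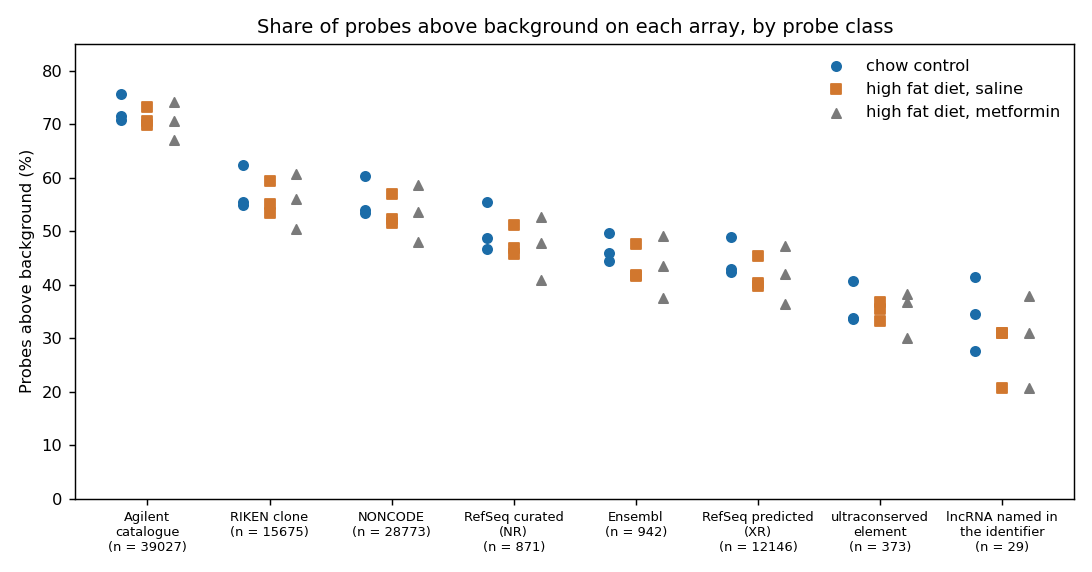
Percent of probes above background (vertical axis) on each of the 9 arrays, by probe class, with the number of probes under each class name and 1 point per pool. The 3 controls lie between 51.3% and 58.1% for all noncoding classes together, and in each class their points overlap those of the high fat diet and metformin pools.

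Detection was largely shared between the control pools. Of the noncoding probes, 27860 (47.4%) were above background on all 3 control arrays, 23257 (39.5%) on none and 13.1% on 1 or 2. For the catalogue, 26613 probes (68.2%) were above background on all 3. Replicate 3 alone accounted for 3108 noncoding probes seen in no other control, against 765 for replicate 1 and 399 for replicate 2.

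The chow pools did not differ detectably from the others in how many noncoding probes gave a signal. The 6 other pools averaged 51.3% for all noncoding classes together, 2.32 points below the controls, with a two-sided exact permutation p of 0.405. Within the classes the adjusted exact p ranged from 0.540 to 0.714 over 8 classes. The difference came to 0.0918 points without control replicate 3. High fat diet replicate 1, the only other pool on the slide that held the 3 controls, stood at 54.8%, between the controls.

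Detected noncoding probes were dimmer than detected catalogue probes. Among probes above background on all 3 controls, the median level was -0.92 for the noncoding classes and 0.60 for the catalogue. The noncoding median was -0.81, -0.97 and -0.95 in replicates 1 to 3, so that the pools differed far less than the classes. Of these noncoding probes 30.9% lay over the upper quartile of the array, against 58.9% of the catalogue probes, and 806 noncoding probes (2.89%) exceeded a level of 4, against 3375 catalogue probes (12.7%). RIKEN clones (-0.83) and NONCODE probes (-0.85) had the highest medians and predicted RefSeq transcripts (-1.31) the lowest. The curated RefSeq class had a median of -0.98 with a longer upper tail, its 90th percentile at 2.93 against 1.62 for the predicted class.

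**Figure D2:**
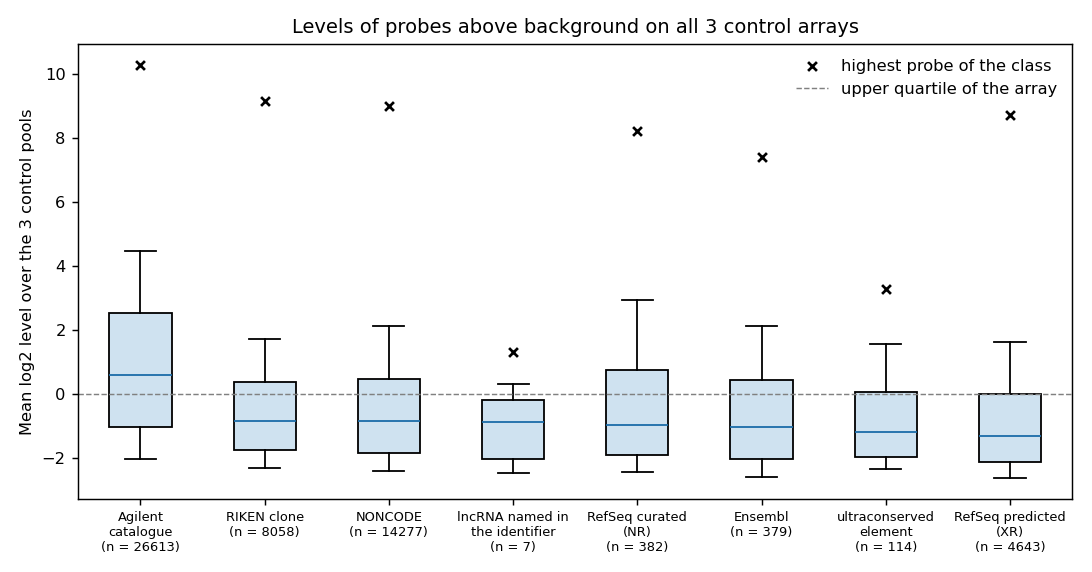
Mean log2 level over the 3 control pools (vertical axis, 0 is the array's upper quartile) of probes above background on all 3 control arrays, by class. Boxes span the quartiles with the median as a line, whiskers reach the 10th and 90th percentiles and crosses mark the highest probe; the catalogue's median is 0.60, and the noncoding medians lie between -1.31 and -0.83.

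A small number of probes carried most of the noncoding signal. The noncoding classes held between 22.2% and 23.4% of the summed signal of a control array, although they made up the larger part of the probes. The brightest 1% of noncoding probes held between 55.3% and 56.6% of the noncoding signal in the 3 controls. At the top of each class, RIKEN clone A430034L18 stood at 9.34, 9.43 and 8.76, NONMMUT057771 at 9.34, 8.82 and 8.89, and predicted transcript XR_392985.2 at 8.79, 9.11 and 8.26. None of these has a gene name in the sources used here. The brightest Ensembl transcript, ENSMUST00000189178, reached 7.37, 7.37 and 7.49, while the brightest ultraconserved element, uc.mouse.186, reached only 3.39, 3.25 and 3.19. One of the brightest curated noncoding accessions, NR_024139.2 at 7.12, 7.32 and 7.22, is a noncoding transcript of Prmt6, a gene for a protein arginine methyltransferase, and was not counted as a noncoding gene.

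Names could be given to 4743 noncoding genes through accessions, clones or names in the identifiers. Of these, 1846 (38.9%) were above background on all 3 controls, 2276 (48.0%) on none and 621 on 1 or 2. Genes of lncRNA type were detected on all 3 controls in 1751 of 4563 cases (38.4%), and transcribed pseudogenes, copies of other genes that no longer give a protein, in 86 of 160 cases (53.8%). A pseudogene probe may also bind the mRNA of the gene it was copied from, so that its level is uncertain. Probes of the same gene often differed. Of 389 noncoding genes with several probes, 123 (31.6%) had 1 probe above background on all 3 controls and another on none.

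Detected lncRNA genes lay on coding genes more often than undetected ones. By the gene table on assembly GRCm38.p6, 610 of the 1751 lncRNA genes above background on all 3 controls overlapped a coding gene (34.8%), against 553 of the 2210 above background on none (25.02%). Of the overlapping genes with a known strand, 90.6% of the detected and 91.7% of the undetected ones ran opposite to the coding gene. The deposited values do not say which strand's RNA was labelled, and signal from an overlapping mRNA was not tested. Among the RIKEN clones, those from testis libraries were detected on all 3 controls in 415 of 1131 cases (36.7%), against 7640 of 14540 (52.5%) for clones of other libraries outside adult liver, and in each control pool the testis clones had the lower share. Only 4 clones came from the adult liver library, of which 3 were detected.

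The 25 brightest named noncoding genes of chow liver had mean levels between 5.36 and 8.63, and most carry only a provisional name. By type, 18 were lncRNAs, 6 were pseudogenes and 1 was Rpph1, the RNA part of RNase P, the enzyme that trims transfer RNA precursors. Gm26535, a predicted lncRNA, was the brightest, at 8.78, 8.64 and 8.46 in control replicates 1 to 3. It was followed by 9330020H09Rik, a lncRNA on the strand opposite to Ccnt1, at 8.41, 8.30 and 7.92. Ccnt1 encodes a cyclin of the factor that releases paused RNA polymerase. Gm39162 stood at 7.79, 7.67 and 7.76, and the pseudogene Gm6548 at 7.69, 7.69 and 7.58. For each of these the 3 pools lay within 0.5 of one another.

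Some of the 25 lie across or beside a coding gene. Snhg9, a host transcript for small nucleolar RNAs, which guide the modification of ribosomal RNA, lies opposite to the ribosomal protein gene Rps2 and reached 7.04, 7.17 and 6.87. The lncRNA 1700008J07Rik, opposite to the chromatin remodeller gene Srcap, reached 7.18, 7.17 and 7.05. Rpph1, within 5 kb of the DNA repair gene Parp2, reached 6.78, 6.47 and 6.37. In all, 9 of the 25 overlapped a coding gene (36%), near the 34.6% of all named noncoding genes above background on all 3 controls. The 25th gene, Gm35992, had a mean of 5.36, and the next 2 in rank, Gm40726 and Gm41762, had means of 5.22 and 5.20.

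Other members of the 25 were spread over this range. Further predicted lncRNAs over a level of 6.5, with the range of the 3 control pools, were Gm32913 (7.26 to 7.55), Gm31648 (7.03 to 7.65), Gm35147 (7.01 to 7.18), Gm39852 (6.999 to 7.14), Gm30509 (6.86 to 6.92) and Gm31828 (6.73 to 6.83). Of these Gm31648 had the widest range. Further lncRNAs between 5 and 6 were Gm35195 (5.59 to 5.77), 1700084E18Rik (5.53 to 5.71) and Gm39648 (5.44 to 5.66), of which 1700084E18Rik lies within 5 kb of Lrrc8a, a gene for an anion channel subunit. The pseudogenes were Gm6194 (7.48 to 7.60), 3000002C10Rik (5.99 to 6.21), Gm6498 (5.98 to 6.12) and Gm13315 (5.67 to 5.93), beside Gm6548 and Gm11517. Of the genes named here, Gm31648 and Gm11517 had controls more than 0.5 apart.

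Promoters of 3 bright genes are shown because they differ in their content of CG dinucleotides, which are dense in the promoters of many widely active genes. Sequences are from RefSeq on GRCm38.p6 and run 5′ to 3′ from 250 bases before the annotated start to 50 after it, with each CG in capitals. Snhg9 (chr17:24719916-24720215, minus strand) has 28 CG and a TATAAA match, searched on both strands. Gm26535 (chr10:37319255-37319554, plus strand, the first of its 2 annotated starts) has 2 CG, and 0610005C13Rik (chr7:45575127-45575426, minus strand), a liver lncRNA described further on, has 7. Neither of the latter has a TATAAA match.
Snhg9: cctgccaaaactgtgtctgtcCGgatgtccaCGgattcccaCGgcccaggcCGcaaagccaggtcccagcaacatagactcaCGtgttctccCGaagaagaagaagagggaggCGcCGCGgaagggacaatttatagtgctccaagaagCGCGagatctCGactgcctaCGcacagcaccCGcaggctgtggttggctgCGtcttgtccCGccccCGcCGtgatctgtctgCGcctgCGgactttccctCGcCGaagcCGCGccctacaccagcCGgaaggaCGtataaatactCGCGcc
Gm26535: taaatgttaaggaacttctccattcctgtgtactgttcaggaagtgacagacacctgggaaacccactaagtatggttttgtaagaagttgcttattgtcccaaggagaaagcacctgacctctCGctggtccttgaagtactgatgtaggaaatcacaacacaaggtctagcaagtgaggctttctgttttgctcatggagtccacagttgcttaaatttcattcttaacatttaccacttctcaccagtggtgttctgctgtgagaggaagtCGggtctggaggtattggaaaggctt
0610005C13Rik: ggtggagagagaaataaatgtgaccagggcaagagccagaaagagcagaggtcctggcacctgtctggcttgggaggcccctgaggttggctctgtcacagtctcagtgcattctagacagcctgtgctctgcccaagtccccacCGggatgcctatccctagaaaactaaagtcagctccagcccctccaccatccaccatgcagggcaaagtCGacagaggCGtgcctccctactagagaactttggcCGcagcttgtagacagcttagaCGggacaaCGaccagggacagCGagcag
Of 27025 promoters of this length in the table, 35.2% hold 15 or more CG and 14.2% hold TATAAA on either strand. A comparison of promoter content between detected and undetected lncRNA genes was void, because a promoter was found for only 75.1% and 74.7% of them, under the 80% set as the minimum. Among the 25 brightest genes, 15 had a promoter in the table and 5 of these held 15 or more CG.

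The levels of the 25 brightest genes repeated closely between the control pools. Their median SD over the 3 pools was 0.0935, and 21 of the 25 had an SD under 0.2. The largest was 0.36 for the pseudogene Gm11517, with 5.28 in replicate 1 against 5.91 and 5.89 in the others. The smallest was 0.005 for the lncRNA 1700055L01Rik, at 7.40, 7.39 and 7.39. The same 25 genes led the rank in the scanner values, after another background correction, after quantile normalization and with each control pool left out in turn.

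**Figure D3:**
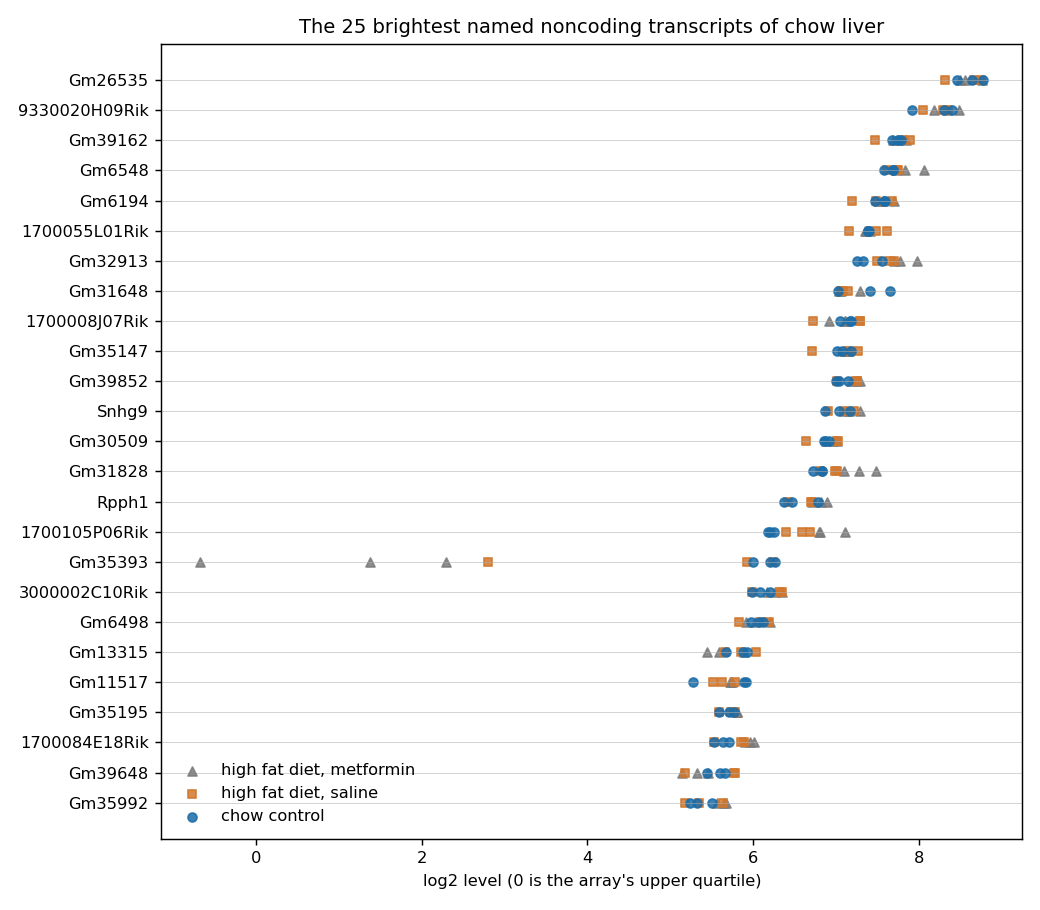
Log2 level (horizontal axis, 0 is the array's upper quartile) of the 25 named noncoding genes with the highest mean in the controls, with 1 point per pool. Control points lie between 5.25 and 8.78 and overlap the other pools for 24 of the 25 genes; Gm35393 is between 6.00 and 6.26 in the controls and reaches down to -0.67 in the metformin pools.

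None of the 25 was called between the controls and the 6 high fat fed pools by limma with Benjamini-Hochberg adjustment over all probes tested. Over all 62091 tested probes 460 (0.741%) were called, so that no call among 25 is no result about these genes. The unadjusted limma p was under 0.05 for 4 of the 25 and for 11159 of the 62091. The lncRNA Gm35393 had the largest difference of the 25. It stood at 6.00, 6.20 and 6.26 in the controls, at 6.24, 5.93 and 2.80 in the high fat diet pools and at 1.38, 2.30 and -0.67 in the metformin pools (limma adjusted p = 0.0903). Of the high fat diet pools, 2 were therefore about as bright as the controls and the other 4 pools were dimmer. The lncRNA 1700105P06Rik, which overlaps Spindoc, was the only gene of the 25 whose controls (6.18, 6.25 and 6.20) lay apart from all other pools (6.40 to 7.12), at a limma adjusted p of 0.0841. The share of all probes with such a separation was not counted, so that 1 of 25 cannot be called many or few.

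Noncoding RNAs known from liver were detected wherever a named probe existed. Of 9 genes in this list 5 had a named probe, and all 5 were above background on all 3 controls. Over all named noncoding genes 38.9% were, which is the share to set beside this list and those below. The lists are short and were chosen with earlier results of these data known. The liver lncRNA 0610005C13Rik, whose promoter is printed above, stood at 4.43, 4.88 and 4.88. The cytochrome P450 pseudogene Cyp2d37-ps stood at 3.80, 3.59 and 3.57. Hnf4aos, which runs antisense beside Hnf4a, the gene of a master transcription factor of hepatocytes, reached 2.09, 2.33 and 2.37, and a RIKEN clone of the same gene 1.86, 2.24 and 2.26. The serpin pseudogene Serpina4-ps1 (0.45, 1.38 and 0.51) and the lncRNA C730036E19Rik (-1.58, -0.44 and -0.69) were lower and varied more, with SDs of 0.52 and 0.60. Copies of these pseudogenes among the cytochrome and serpin families could share signal.

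The label of the tissue could be checked on the named probes only in part. Of 14 hepatocyte markers, 2 had a probe, both through RIKEN clones of the locus. Fads2, a desaturase of fatty acid synthesis, stood at 4.31, 4.87 and 4.48, and Igf1, the growth factor that liver releases into blood, at 3.05, 2.96 and 3.26. None of the markers of Kupffer, endothelial, stellate, bile duct, lymphoid, erythroid, fat, muscle or pancreatic cells had a named probe, so that the share of other cells was not tested.

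Widely expressed lncRNAs were detected with 1 exception. Of 16 listed genes 7 had a named probe and 6 were above background on all 3 controls. Mir22hg was the brightest, at 3.64, 3.76 and 4.09, followed by Lncpint, a transcript induced by p53, at 2.83, 2.56 and 2.23. Ftx, from the X-inactivation centre (-1.43, -0.71 and -0.96), Firre, which organises nuclear architecture (-1.08, -1.48 and -0.97), and Kcnq1ot1 (-1.12, -1.21 and -1.19) lay close together below the upper quartile. A second Ftx probe, at -4.66, -3.68 and -3.10, passed the background test on 1 of 3 controls. Among the brightest probes of these genes, that for Neat1, the scaffold of nuclear paraspeckles, varied most, at -0.79, -2.32 and -1.70. Chaserr, a lncRNA upstream of the chromatin remodeller gene Chd2, was not well above background in any control pool (-3.86, -4.00 and -3.82).

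Host transcripts of small nucleolar RNAs were detected in 6 of 7 cases. Below Snhg9, Snhg8 stood at 1.15, 2.04 and 2.10, Snhg3 at 0.93, 1.56 and 1.41 and Snhg5 at -0.48, 0.18 and 0.34. In all 3 replicate 1 was the lowest pool. Snhg16 (mean -1.60) and Snhg7 (mean -1.61) were dimmer, and Snhg18 passed the background test on 2 of 3 arrays.

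Of the genes listed as microRNA hosts, 4 of 5 with a named probe were detected on all 3 controls. Mir22hg carries miR-22, and Mir9-3hg, at 1.90, 1.64 and 1.40, carries miR-9, a microRNA best known from the nervous system. The arrays measured the host transcripts and not the mature microRNAs, whose sequences, from RefSeq on GRCm38.p6, are shown with the seed (bases 2 to 8, which pair with targets) in capitals to identify what the brightest hosts encode.
mmu-miR-22-3p: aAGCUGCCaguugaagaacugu
mmu-miR-22-5p: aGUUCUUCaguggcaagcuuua
mmu-miR-9-5p: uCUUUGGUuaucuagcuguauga
mmu-miR-9-3p: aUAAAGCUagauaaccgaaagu
The 4 mature microRNAs have 4 different seeds. Mir100hg, a host of miR-100, stood at -1.48, -0.96 and -1.31 by 1 clone while a second clone was below background on every control. Mirt1 had a mean of -2.59. No microRNA was assigned to Mirt1 here, so that its place on this list does not show it to be a host. Mir1a-1hg, the host of miR-1a, a microRNA of muscle, passed on 1 of 3 arrays (mean -3.45).

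Imprinted noncoding RNAs, which are made from the copy of 1 parent, lay below the upper quartile in all 3 controls. Of 6 with a named probe, 5 were above background on all 3 controls. Over all noncoding probes so detected the median level was -0.92. Meg3 stood at -0.26, -1.05 and -0.02 and Rian at -0.75, -2.13 and -0.90, and both were lowest in replicate 2. These 2 transcripts and Mirg come from the same maternally expressed cluster, and Mirg passed on 1 of 3 arrays (mean -3.64). Airn, the antisense transcript of Igf2r, was at -1.12, -1.36 and -1.43 by its brighter probe, and Peg13 at -2.43, -1.20 and -1.38. Kcnq1ot1, which silences neighbouring genes on the paternal copy and is given above with the widely expressed lncRNAs, was the tightest, with an SD of 0.05.

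The noncoding lists for brain, muscle and heart, development and immune cells held 12 genes with a named probe. By the brightest probe of each gene, 4 (33.3%) were above background on all 3 controls and 5 (41.7%) on none. Over all named noncoding genes these shares were 38.9% and 48.0%. The neural transcripts Sox2ot (-4.92, -5.01 and -5.66), Rmst (-3.83, -5.21 and -4.75) and Dlx6os1 (-4.99, -5.30 and -5.77) were not well above background in any of the 9 pools. Of the 5 brain genes with a named probe the other two, Mir9-3hg and Peg13, were detected. Hotair, from a Hox gene cluster, was above background in no pool (mean -4.46), Hottip and Fendrr passed on 1 of 3 controls each, and none of these 3 developmental genes passed on all 3. The heart transcript Mhrt was detected, at -1.53, -2.33 and -2.14. Of 2 immune transcripts, Ifngas1 was not well above background in any pool, whereas Morrbid, which controls the survival of myeloid cells, stood at -1.02, -0.78 and -1.20 by 1 probe and below background by another. The list for testis held 1 gene, which had no named probe.

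**Figure D4:**
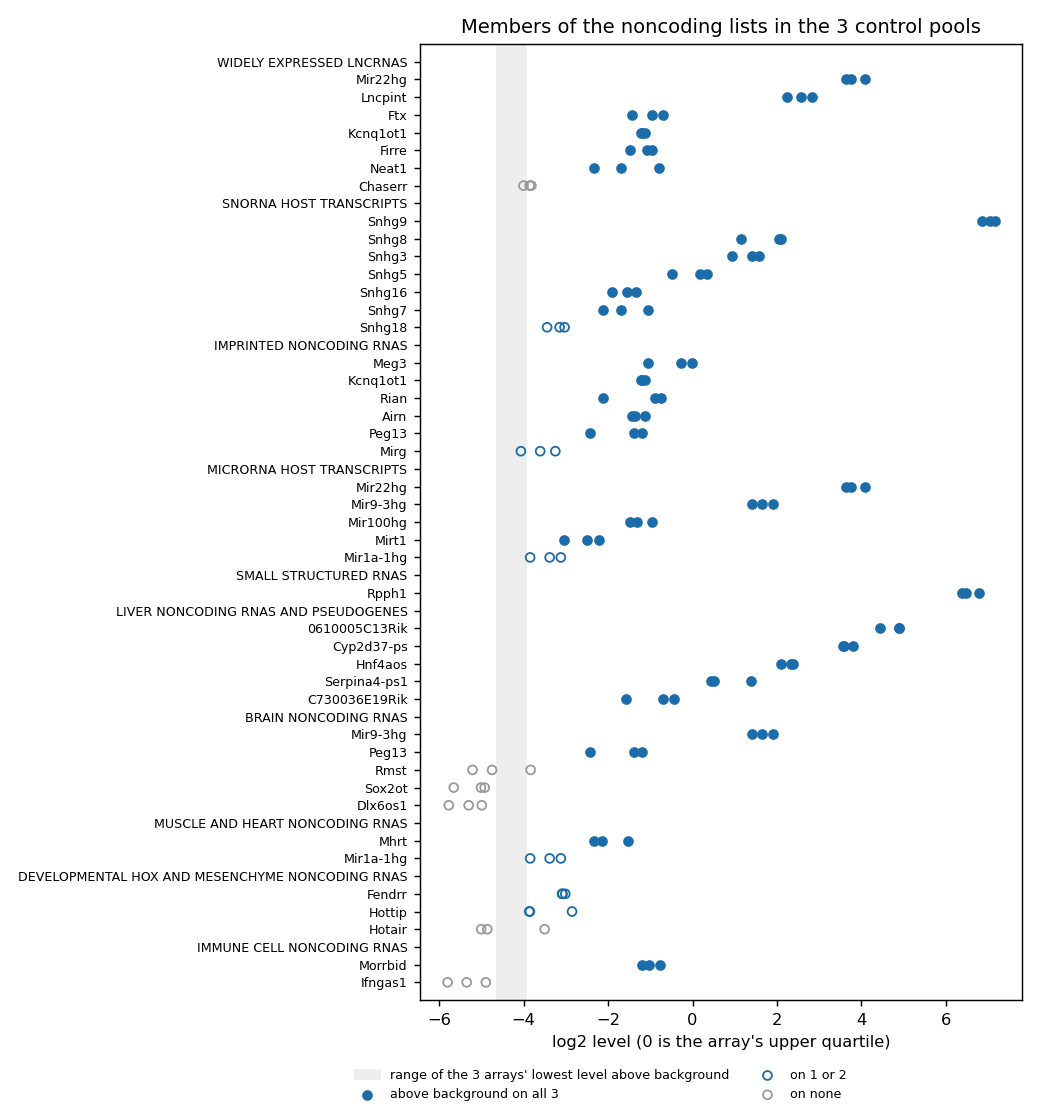
Log2 level (horizontal axis, 0 is the array's upper quartile) in the 3 control pools of every list member with a named probe, by the brightest probe of the gene, 1 point per pool. Filled points mark genes above background on all 3 controls, open blue ones those on 1 or 2 and grey ones those on none, and the grey band is the range of the lowest level above background, -4.63 to -3.95; all 5 liver genes are filled, and 3 of 5 brain genes are grey.

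The spread between control pools was moderate and larger than the spread between spots. Over noncoding probes above background on all 3 controls the median SD was 0.214, against 0.242 for the catalogue, and 145 noncoding probes (0.520%) had an SD over 1. Among noncoding probes with 2 spots the median SD was 0.213 between pools and 0.105 between the spots of a probe on the same array. The spread fell with level, from a median SD of 0.269 below -2 to 0.136 above 4 in the noncoding classes, and at levels above -2 the noncoding median was below that of the catalogue in every bin. The classes were close to each other, from 0.210 for RIKEN clones to 0.242 for ultraconserved elements, apart from 0.329 for the 7 detected probes that carry a lncRNA name. The high fat diet and metformin groups had smaller medians, 0.194 and 0.170, over their own detected noncoding probes.

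**Figure D5:**
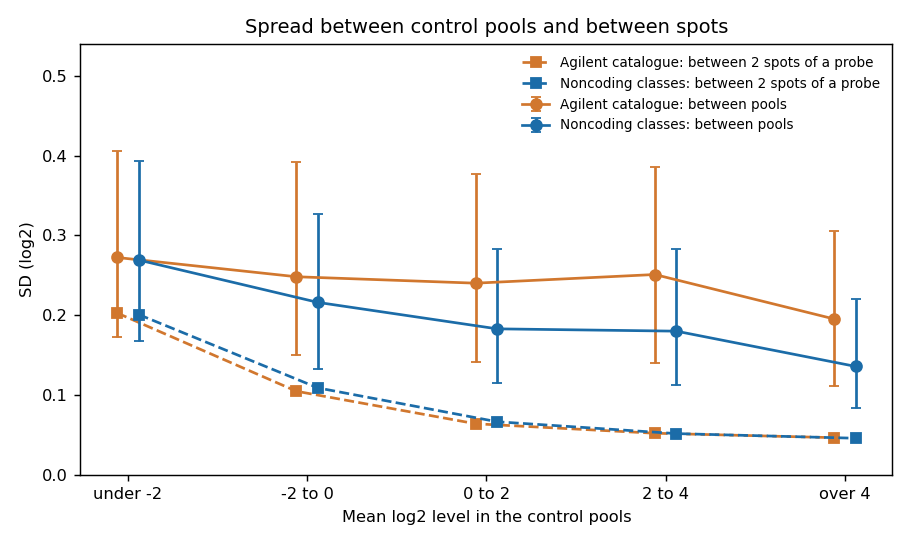
Median SD in log2 units (vertical axis) of probes above background on all 3 controls, in bins of mean control level (horizontal axis). Solid lines show the SD between the 3 pools, with bars for the quartiles over probes, and dashed lines the SD between the 2 spots of a probe; the noncoding pool SD goes from 0.269 in the dimmest bin to 0.136 in the brightest.

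Control replicate 1 set much of this spread. Without it the median SD of noncoding probes was 0.127, against 0.204 without replicate 2 and 0.194 without replicate 3. In the catalogue it was 0.101 without replicate 1. Across detected noncoding probes, which are not independent, replicate 1 correlated at 0.972 and 0.968 with the others, which correlated at 0.986 with each other. In replicate 1, 282 noncoding probes lay more than 2 above the mean of the other controls, against 49 and 27 in replicates 2 and 3. In the other direction replicate 1 had the fewest, with 37 more than 2 below against 58 and 77. After normexp background correction the median SD was 0.137, so that the size of the spread depended on the background correction. The signal ratio of 2 control probes named for the 3′ and 5′ ends of Pgk1 was 4.22 in replicate 1, against 5.90 and 6.52 in replicates 2 and 3. In the 6 other pools this ratio ran from 3.85 to 6.56 (two-sided exact permutation p = 0.262 against the controls). Its part in the spread or in the differences between the controls and the other pools was not tested.

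The named genes with the widest spread show the same pool. The RIKEN transcript 4932431L22Rik stood at 3.13 in replicate 1 against 1.43 and 0.98, Gm35972 at 1.88 against 0.35 and 0.33, and Gm35019 at 1.61 against 0.54 and 0.04. The pseudogene Gm4956 (-0.34 against 1.01 and 1.13) and the lncRNA Gm41268 (0.21 against 1.76 and 1.31) were low in replicate 1. Apart from 1700055L01Rik, the narrowest spreads were those of Bambi-ps1 (2.06 to 2.08), Gm33624 (2.60 to 2.62), D830014E11Rik (3.95 to 3.97) and Gm36287 (0.58 to 0.60). Of 479 named noncoding genes above the upper quartile and detected on all 3 controls, 240 were highest in replicate 1.

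The chow baseline was then set against the 6 high fat fed pools over all 62091 probes that were above background on at least 3 of 9 arrays. By limma with Benjamini-Hochberg adjustment, 460 probes (0.741%) differed, of which 173 (0.279%) were higher and 287 (0.462%) lower in the high fat fed pools. Noncoding probes gave 261 of these calls, 125 higher and 136 lower, of 33076 tested (0.789%), and 27 of 2241 named noncoding genes were called, 11 higher and 16 lower (1.20%). The noncoding share is near that over all probes. The median difference was 0.00 for noncoding probes and -0.01 for all probes. After quantile normalization 534 probes were called and 285 of them were higher, so that the larger share was then higher and not lower.

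The number of calls depended on single pools. Leaving out control replicates 1, 2 and 3 left 44, 7 and 149 calls, and leaving out high fat diet replicates 1, 2 and 3 gave 1223, 62 and 325. Without metformin replicates 1, 2 and 3 there were 186, 141 and 55. All 3 controls lay on the same slide, with high fat diet replicate 1, and with slide as a block 4 probes were called, none of them among the 460. Within that slide, high fat diet replicate 1 lay beyond all 3 controls on the side of the fitted difference for 453 of the 460 probes, against 38.1% of all tested probes. That pool is 1 of the 6 that gave the calls, so this is a description and no independent check. The added E1A spike-in RNA, as the mean of 7 probes, was also brighter in the controls, at 3.14, 3.31 and 3.63, than in the others, at 2.21 to 2.78 with 2.63 in high fat diet replicate 1 (two-sided exact permutation p = 0.0238, the smallest that 3 against 6 can give). Its part in the differences was not tested.

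Transcripts brighter in chow liver included Rian, the imprinted lncRNA. It stood at -0.75, -2.13 and -0.90 in the controls, at -3.57, -3.46 and -3.51 in the high fat diet pools and at -2.43, -3.65 and -3.72 in the metformin pools, and it was well above background on 1 of these 6. Its difference, high fat fed minus control, was -2.13 ± 0.35 (SE, limma adjusted p = 0.0381). After normexp background correction the difference was -0.93 (limma adjusted p = 0.0248). Rian was called in 6 of 15 alternatives, with limma adjusted p from 0.0248 to 0.981, the highest with slide as a block. The groups did not overlap, which adds no support because Rian was called on these same values. Its neighbour Meg3 was at -1.29 with an adjusted p of 0.0543, and a second Rian probe was below background in all pools. Of 5 imprinted genes tested Rian was the only call, where 0.741% of all tested probes and 1.20% of named noncoding genes were called. The median difference of the 5 was -0.81, against -0.01 over all probes. It is the value of Kcnq1ot1, which was not called (limma adjusted p = 0.187). Peg13 was at -0.29 and Airn at 0.05 by its brighter probe. Rian and Meg3 share a cluster, so that the 5 are not independent and do not show a change of imprinted RNAs as a class.

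Other transcripts brighter in chow liver had provisional names. The RIKEN transcript 1700040G22Rik stood at -0.98, -1.15 and -1.54 in the controls and between -4.98 and -2.53 in the others, where 1 of 6 pools was above background (difference -2.69 ± 0.38, SE, but -0.85 after normexp). The lncRNA Gm32342, detected in all 9 pools, stood at 2.18, 2.21 and 2.81 against -0.78 to 1.19 (-2.37 ± 0.37, and -2.09 after normexp). The control ranges did not overlap the others for either gene, which adds no support because both were called on these same values. For 4933406F09Rik control replicate 1 (0.18) was far above the other controls (-1.25 and -1.51), which still exceeded the highest of the others, -2.01, and it was not called after normexp (difference -0.88, adjusted p = 0.0767) or quantile normalization (adjusted p = 0.0532). Gm38830 was tightest in the controls, at -2.83, -2.91 and -2.91, and not well above background in any other pool. It was at least 2.48-fold higher in chow liver on the deposited scale. After normexp its difference was -0.34, smaller than that bound, and the gene was not called (adjusted p = 0.0639). The limma adjusted p of these 4 genes was 0.0266, 0.0341, 0.0486 and 0.0118. The other 11 genes brighter in chow liver, with differences from -1.79 to -0.86, were Gm32772, Gm41751, Speer4cos, Gm40467, Speer5-ps1, Gm40300, Gm39806, Gm15704, Gm14198, C030047K22Rik and Gm40106. Among them the pseudogenes Speer4cos and Speer5-ps1 belong to a gene family of spermatogenesis; Speer5-ps1 stood at -0.78, -1.14 and -1.36 in the controls and between -2.89 and -1.80 in the others. Members of that family are near-identical copies, so that their signals may be shared.

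Transcripts dimmer in chow liver had differences of up to 1.32. Chaserr, not well above background in the controls, was so in 5 of 6 other pools. It stood at -3.16, -2.99 and -2.53 with high fat diet and at -2.09, -2.25 and -2.67 with metformin. The difference was 1.28, or 2.43-fold (limma adjusted p = 0.0257), and 0.40 after normexp. Its control levels lay above the lowest level marked on their arrays, so that 2.43-fold is the measured difference and no lower bound. Gm32128 was above background in all 6 others, between -2.61 and -2.12, and in no control (-3.97, -3.60 and -3.76). It was at least 2.49-fold higher on the deposited scale (limma adjusted p = 0.0129, or 0.0528 after normexp). Its smallest difference over the alternatives was 0.42, against 1.32 in the main fit, so that other processing did not keep this bound. The lncRNAs Gm36317 (controls -1.54, -1.24 and -1.62 against -0.84 to 0.22), 4930533P14Rik (-1.20, -0.997 and -0.78 against -0.32 to 0.23) and Gm39094 (0.31, 0.49 and 0.71 against 0.70 to 2.10) were also called higher. The groups overlapped for Gm39094 alone among all 27 called genes. These genes were called for a difference between the same pools, so that the lack of overlap adds no support. The share without overlap over all tested probes was not counted. The other 6 genes called higher, with differences from 0.68 to 0.94, were Gm31534, Gm34472, Gm36005, Gm32627, 4930549G23Rik and 4930588K23Rik.

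None of these single-gene calls held throughout. All 27 kept their sign in every alternative in which they were tested, but 2 of 27 (Gm38830 and Gm32128) passed without control replicate 1, none without control replicate 2 and none with slide as a block. Without control replicate 3 there were 7, without high fat diet replicates 1, 2 and 3 there were 26, 4 and 21, and without metformin replicates 1, 2 and 3 there were 13, 9 and 6.

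Few noncoding probes were on in chow liver and off elsewhere. On and off here mean only whether the background test was passed, not whether a transcript was present. Over all probes, 147 (0.15%) were above background on all 3 controls and on none of the 6 others, of which 74 were noncoding, with 9 named genes among them. The brightest were Gm3141 (-0.67, -2.40 and -2.94 in the controls), Gm32772 (-2.01, -2.88 and -3.17) and Gm26567 (-2.48, -2.50 and -3.24), all well below the upper quartile. The highest of the other pools stood at -3.29 for Gm3141, -3.98 for Gm32772 and -3.26 for Gm26567. For Gm26567 this pool was thus nearly as bright as control replicate 3. Of the 3 genes, Gm32772 passed the limma test (adjusted p = 0.0283). The reverse, above background on all 6 others and on no control, held for 15 probes (0.0153%), 12 of them noncoding, with Gm32128 and Gm41949 as the named genes. The criteria differ in the number of arrays they ask for, so that these counts are not comparable with each other.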

How the data were processed

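Liver RNA of 9 pools was measured on 1-colour Agilent arrays. The spot signals came from Agilent Feature Extraction, version 11.5.1.1 per the file headers and 10.7 per the submitters' processing notes, and the header names build mm9. Per the file headers, the processed signal that the authors deposited is an intensity with background subtracted and spatial trends removed. The series-wide table deposited by the authors is in log2. A check against the scanner files found that a column differs from log2 of the processed signal by an array constant, to within 0.01 at every probe with a scanner value, so scale, centring and direction were known (column medians -2.39 to -2.16 over the 9 arrays). These log2 values were used, and detection came from the scanner's mark of spots well above background. Outlier spots were left out (73 to 192 of 175906 on an array), and saturation was not seen. Each control array had 57972 to 63707 probes above background, the others 53162 to 62117. The number of arrays limits the precision.

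Probes were classed by identifier and named through RefSeq accessions, RIKEN clones or names in it, with 5890 probes named; catalogue and NONCODE identifiers are not paired with genes here. The brightest probe stood for a gene. Named were the 25 noncoding genes with the highest control mean among those above background on all 3 controls, all list members with a named probe, the 5 largest and 5 smallest SDs among genes above the upper quartile, the 5 largest called changes each way (the other called genes are listed by name after their values were seen), and the 3 brightest of each on-off pattern. The members and lists were chosen with earlier results of these data known. Shares were compared by two-sided exact permutation tests over arrays; levels with limma 3.58.1 in R 4.3.3 (lmFit, eBayes, 1 mean per group, 9 arrays, Benjamini-Hochberg at 0.05) on probes above background on at least 3 arrays, tested on simulated data. A gene not well above background in a whole group has a bound: the bright group's mean against, per array, the higher of the lowest level above background and the probe's own. The bound holds on the deposited log2 scale alone. Where the probe's own levels are the higher ones, it equals the measured difference. Replicates are separate pools per the labels. Replicate numbers only name pools. Alternatives covered detection thresholds, scanner values, background correction, normalization, filters, slide, replicate number and each pool left out. The scanner files used here give no mean signal, so normexp (offset 50) ran on the median signal, an alternative chosen after seeing the data. Python 3.11.15 and scipy 1.17.1 were used.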

Additional observations from a re-analysis of the deposited data

Results flagged for a closer look

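A pair of ERCC spike-in probes, which belong to a set of synthetic control RNAs, gave a signal that no comparison used. ERCC-00012_90 had a mean level of 0.64 in the controls and ERCC-00043_129 one of -0.11, which is 5.99 and 5.24 above the negative control spots. Both were above background on all 9 arrays, whereas the other 10 ERCC probes were above background on none. The labels used here do not say whether these RNAs were added.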

How the results depend on the processing

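The sign of each share difference, level difference and named gene was the same under every alternative run, but the split of calls was not: higher calls were the larger part after quantile normalization and with slide as a block, and the median difference over all tested probes went from -0.01 to 0.02 after quantile normalization, 0.01 after normexp and 0.03 with slide as a block. The mean share of noncoding probes above background (53.7%) was 49.4% where every spot had to pass, and 78.0% and 75.6% above the 95th and 99th percentile of the negative control spots; the catalogue's lead was 9.92 and 10.8 points under these. The share on all 3 controls was 70.4% and 68.4% with these thresholds, 53.2% for at least 2 and 60.5% for at least 1 of 3. Leaving out a control gave shares of 51.4% to 54.8%, leads of 18.4 to 19.8 points and 47.7% to 50.3% on the remaining controls. The difference from the other pools ran from 0.0918 to 3.50 points over all pools left out. After normexp the noncoding median was -0.66 and the catalogue's lead 1.16; without a control they ran from -0.96 to -0.90 and from 1.47 to 1.63. The noncoding median SD was 0.137 after normexp and 0.337 over all probes, and 0.127 to 0.204 without a control; for the catalogue 0.180, 0.306, and 0.101 to 0.261. The cause was not tested, except that all probes add those below background.

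Between the controls and the high fat fed pools 460 probes were called, with 173 higher, 287 lower and 261 noncoding. These counts came to 213, 46, 167 and 127 without a filter, where more probes were tested. With slide as a block they were 4, 4, 0 and 3, and limma gave 2791 unadjusted p-values under 0.05. With a replicate block they were 216, 58, 158 and 129; same-numbered pools correlated between -0.09 and 0.13 in their deviations, 1 of 9 pairs over 0.1, so that the numbers did not pair the samples. Probes called higher were 262 after normexp and 285 after quantile normalization, and 589 and 534 were called in all; 270 of the normexp calls were among the 460. Leaving out a pool gave 7 to 1223 calls, 2 to 262 higher, 5 to 961 lower and 4 to 789 noncoding. The cause was not tested. Normexp on the mean signal was not run. Signal over background limits the dim classes, since a probe below background has only a bound.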
